A study of Rattus norvegicus with 93 samples.

Results

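Cdkn1c, Itm2a, Igsf10, Srpx2, Csrp2, Armh4, Clec2d2 and Cpxm2 are 8 of the 15974 genes measured in the healing tissue of drilled skull defects in rats. They were chosen by their measured increases above day 1 at day 3 or later, so their increases over time are given as a description, without a test. The rule named genes and set no threshold. Male rats aged 12 weeks had 1 circular hole of 8 or 4 mm trephined in the calvarial bone that roofs the skull, with the dura mater left in place and no further treatment. The submitters class the 8 mm hole as CSD and the 4 mm hole as non-CSD, where CSD is the usual short form for a critical-size defect, one too wide to close with bone unaided. The plug of healing tissue was cut out with a trephine of the same width at 7 times. The 8 mm groups held 5, 11, 12, 5, 6, 6 and 6 defects at days 1, 3, 5, 7, 10, 14 and 21, and the 4 mm groups held 3, 8, 11, 5, 4, 5 and 6. Each of the 93 defects was hybridised to its own one-colour whole-genome array, and unoperated bone was not analysed here.

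A closing wound passes from a clot with inflammatory cells to a proliferating, vascularised connective tissue and then to matrix that is remodelled or mineralised. The 8 genes belong to different protein families. Cdkn1c encodes an inhibitor of cyclin-dependent kinases and is an imprinted gene that limits growth. Itm2a encodes a membrane protein with a BRICHOS domain. Igsf10, Srpx2 and Cpxm2 encode secreted proteins: an immunoglobulin-domain protein first described in mechanically stressed rat calvarial cells, a sushi-repeat protein that binds the urokinase receptor, and a carboxypeptidase-like protein without known catalytic activity. Csrp2 is a LIM-domain protein of smooth muscle and of the actin skeleton, Armh4 is a membrane protein that restrains signalling by the kinase mTOR in mouse cells, and Clec2d2 belongs to the rodent C-type lectins, some of which are bound by Klrb1 receptors of natural killer cells.

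Values are log2 of the deposited linear ratio, so 0 is a probe's typical level over all arrays and 1 unit is a doubling. The lowest ratio in the data, 0.01, is a floor at -6.64 on this scale. Levels of different genes are not comparable on it, because most probes are scaled to their own median. The median level of an array lay below -0.7 on 7 arrays. Among 8 mm defects they were replicate 11 (day 1), replicates 18 and 20 (day 3) and replicates 10 and 11 (day 10), and among 4 mm defects replicate 13 (day 1) and replicate 10 (day 10). The 8 osteoblast markers were above the floor on some arrays of each group, and their mean was -2.09 at day 1 and 1.24 at day 21 in 8 mm defects, and -3.0 and -0.10 in 4 mm defects. In such bulk tissue, fewer cells of a type and less RNA per cell cannot be told apart. Each array is a separate defect, so p-values measure the spread between these defects.

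Promoters from RefSeq (GRCr8), as the 250 bases before the start given in the promoter set, were matched for 6 of the 8 genes, not for Cdkn1c and Clec2d2. That start is not always the outer end of the annotated gene. The windows of Igsf10 and Srpx2 lie wholly inside the annotated span of their gene, and those of Armh4 and Cpxm2 overlap its edge. The windows are shown for 1 gene of each time course described below. These are Csrp2 with a transient increase, Igsf10 with a maximum at day 5 or 7 and a lower level at day 21, and Cpxm2 with a late maximum. Capitals mark the sequence GGGCGG (or its complement CCGCCC), the core of GC boxes, and GGAATG (or CATTCC), the core that TEAD factors bind. The sequences run 5′ to 3′ on the strand of the gene.
Csrp2, chr7:48235165-48235414, plus strand: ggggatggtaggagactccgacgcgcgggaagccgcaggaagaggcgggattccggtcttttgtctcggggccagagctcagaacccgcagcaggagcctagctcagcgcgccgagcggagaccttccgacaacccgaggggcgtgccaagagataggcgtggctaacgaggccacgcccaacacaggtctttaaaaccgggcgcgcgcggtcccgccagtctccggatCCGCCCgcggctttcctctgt
Igsf10, chr2:145754580-145754829, minus strand: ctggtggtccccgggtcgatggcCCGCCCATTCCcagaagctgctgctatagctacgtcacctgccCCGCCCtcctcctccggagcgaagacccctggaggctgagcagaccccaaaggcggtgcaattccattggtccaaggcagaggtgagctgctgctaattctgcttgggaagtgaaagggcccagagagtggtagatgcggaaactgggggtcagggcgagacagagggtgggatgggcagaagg
Cpxm2, chr1:196377348-196377597, minus strand: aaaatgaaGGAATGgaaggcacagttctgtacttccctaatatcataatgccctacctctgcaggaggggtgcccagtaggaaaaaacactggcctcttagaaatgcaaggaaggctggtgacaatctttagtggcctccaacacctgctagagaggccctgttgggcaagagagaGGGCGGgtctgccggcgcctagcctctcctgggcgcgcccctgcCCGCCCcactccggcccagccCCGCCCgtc

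GGGCGG stood once in the Csrp2 window, 21 to 16 bases before the start, and 2 times in that of Igsf10. Cpxm2 had it 3 times and Itm2a once. It occurred in 30.47% of 33469 rat promoters of the same length. GGAATG stood in the windows of Igsf10, Srpx2 and Cpxm2, and in 12.06% of all promoters. In Igsf10 its complement shares the last base of a CCGCCC, so the capitals there run together. Also searched on both strands, and not found in the 6 windows, were TATAAA (in 12.93% of all promoters), TGANTCA (6.34%), ACCACA (14.47%) and the CArG box (1.5%). The window of Srpx2 held 46.4% G and C and that of Csrp2 66.8%, against a median of 51.2% over all promoters. The genes lie on chromosomes 1 (Cdkn1c, Cpxm2), X (Itm2a, Srpx2), 2 (Igsf10), 7 (Csrp2), 15 (Armh4) and 4 (Clec2d2). No motif searched was in all 6 windows.

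**Figure D1:**
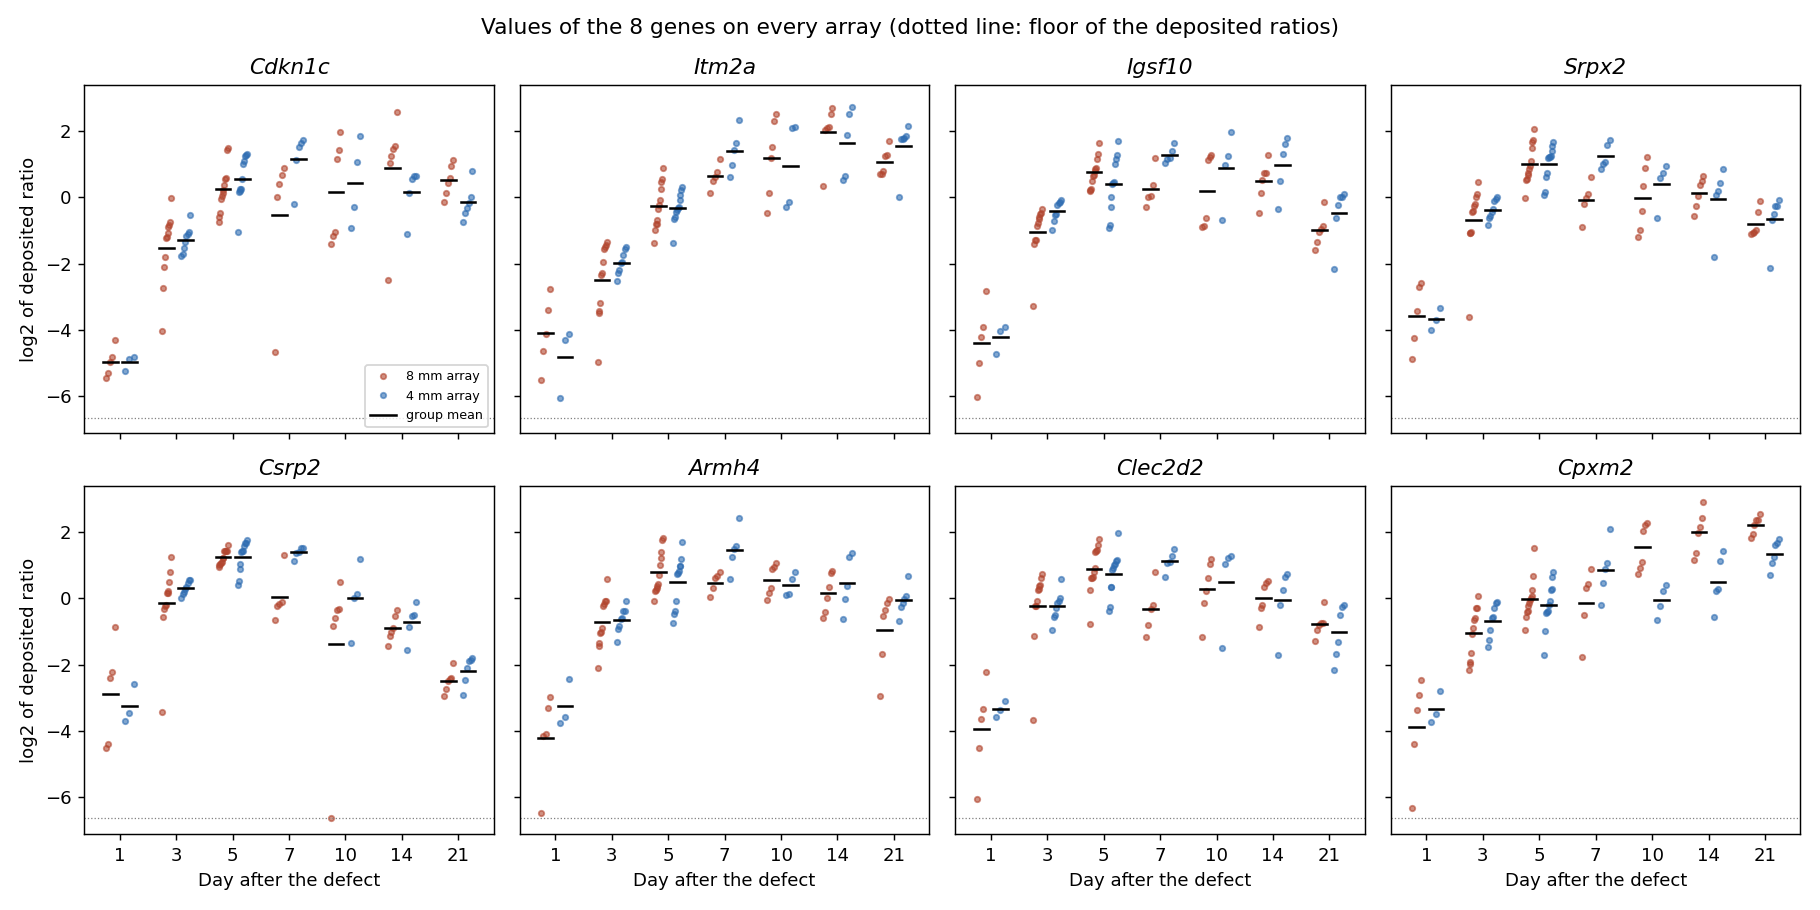
Each point is the log2 deposited ratio of 1 gene on 1 array, by day after the defect, with 8 mm defects in red at the left of each day and 4 mm defects in blue at its right; black bars are group means and the dotted line is the floor. The means of all 8 genes are lowest at day 1, and Csrp2 is back between -2.94 and -1.81 at day 21.

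The mean of each of the 8 genes was lowest at day 1, between -4.97 and -2.89 in 8 mm defects and between -4.97 and -3.25 in 4 mm defects. Of 85 arrays of later days, all 85 lay above every day 1 array of their size for Armh4 and Cpxm2. For Cdkn1c, Igsf10, Srpx2 and Clec2d2 it was 84 of 85, for Itm2a 81 and for Csrp2 72. At day 3 the counts were 19 of 19 arrays for Cdkn1c, Armh4 and Cpxm2, 18 for Igsf10, Srpx2, Csrp2 and Clec2d2, and 15 for Itm2a. These counts use the values by which the genes were chosen and describe them only. Cell type markers moved over the same days. The mean of the 7 fibroblast markers was -2.55, -0.74 and 0.15 at days 1, 3 and 5 in 8 mm defects and -2.70, -0.24 and 0.09 in 4 mm defects. The mean of the 6 neutrophil markers was 2.18, -0.23 and -1.74 at these days in 8 mm defects and 1.68, -0.19 and -1.84 in 4 mm defects. That of the 8 skeletal muscle markers was 3.92, 3.14 and 1.93 in 8 mm and 4.92, 2.49 and 1.73 in 4 mm defects, and at day 10 it was -2.24 in 8 mm and -2.63 in 4 mm defects. The part of these markers in the increases was not tested. The size of the increases also depends on the scaling: the median over the 8 genes at day 5, both sizes together, was 4.42 on the deposited scale, 4.01 with each array centred and 5.57 with quantile normalization. Raising ratios under 0.25 to that value, which by construction lifts the day 1 readings, moved 93 of 96 increases by more than 1 SD, and quantile normalization moved 60 of 96. Ranked by the increase from day 1 to day 5 among all 15974 genes, Cdkn1c stood in place 14, Igsf10 in place 34, Srpx2 in place 49 and Cpxm2 in place 189. Among the 8973 genes with no floor value on the arrays of those days, which leaves out genes that start from the floor, the places were 1, 3, 4 and 31. At day 21, Itm2a stood in place 24, Cpxm2 in place 43 and Csrp2 in place 4171 of all genes, and in places 4, 6 and 2266 of the 6892 with no floor value. The ranks too rest on the values that chose the genes.

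**Figure D2:**
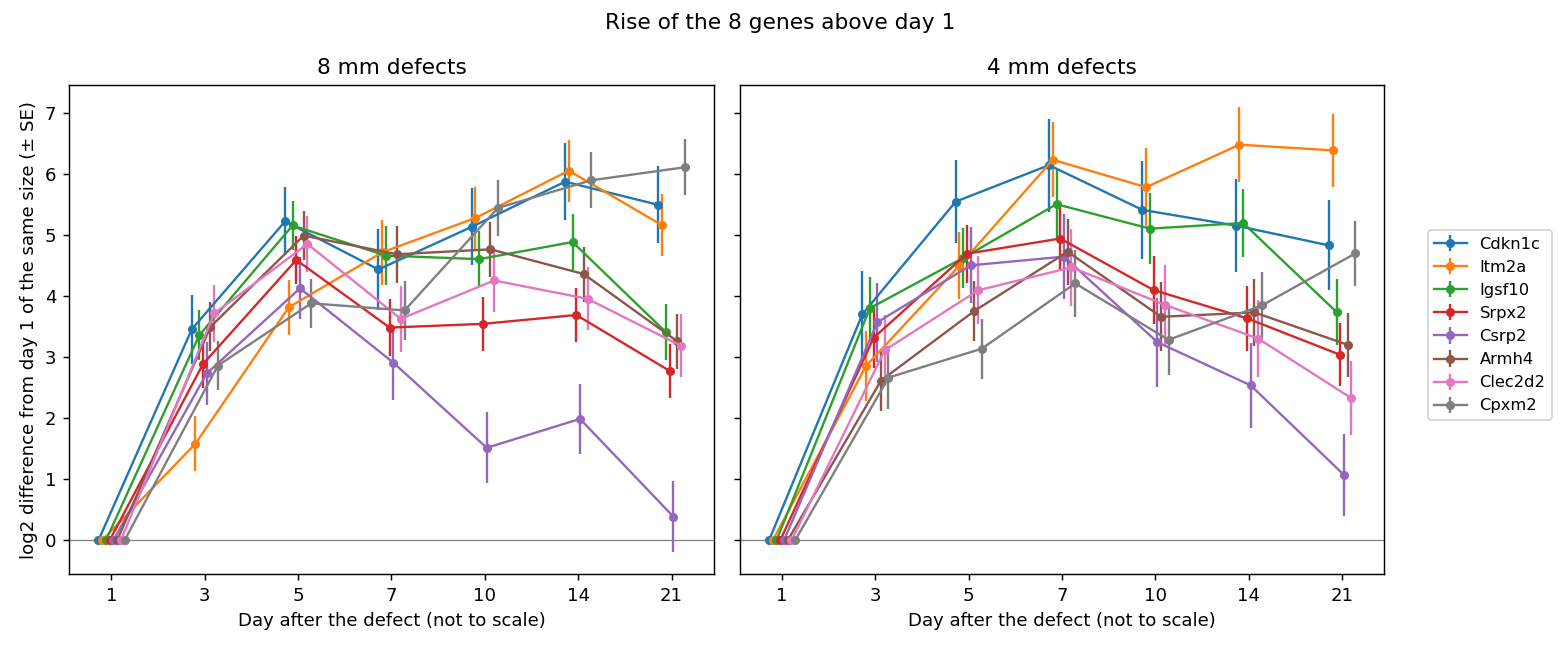
Lines give the mean log2 difference of each gene from day 1 of the same defect size, with bars of 1 SE from the fit over all arrays, for 8 mm defects at the left and 4 mm defects at the right. Itm2a and Cpxm2 are highest at day 14 or 21, Csrp2 falls back to 0.39 in 8 mm and 1.07 in 4 mm defects at day 21, and the other genes stay 2.33 or more above day 1.

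Cdkn1c, the kinase inhibitor, had means of -4.97, -1.51, 0.25, -0.54, 0.16, 0.90 and 0.52 over days 1 to 21 in 8 mm defects, and of -4.97, -1.27, 0.57, 1.17, 0.44, 0.18 and -0.15 in 4 mm defects. The 5 arrays of 8 mm day 1 read -4.97, -5.30, -4.82, -4.29 and -5.46, and the 3 of 4 mm day 1 read -5.22, -4.87 and -4.82. These values are from the probe used, which is compared with the other 3 below. The largest mean increase was 58.4-fold at day 14 in 8 mm defects and 70.5-fold at day 7 in 4 mm defects. Of the log2 difference at its maximum, 93.5% was still present at day 21 in 8 mm defects and 78.6% in 4 mm defects. The 8 mm mean of day 14 includes replicate 15 at -2.48. No array of day 21 was below -0.73 with this probe, so Cdkn1c stayed high to the end of the series.

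Cdkn1c is measured by 4 probes, and the one used here, with the widest spread, departed by over 2 log2 units from the median of the others on 3 of 51 arrays of 8 mm defects and 0 of 42 of 4 mm defects. Departures over 1 log2 unit occurred on 7 arrays of 8 mm and 1 of 4 mm defects. Replicate 14 of day 7 read -4.66 with it and 1.07 as the median of the other 3 probes. Replicate 15 of day 10 read -1.17 and 1.58, and replicate 15 of day 14 read -2.48 and 0.08. The other 3 probes correlated at 0.979 to 0.997 with each other over the 93 arrays and at 0.878 to 0.904 with the probe used. All 4 probes had their lowest means at day 1. By the other 3 probes the level at day 7 was 0.60 ± 0.46 in 8 mm and 1.39 ± 0.46 in 4 mm defects (SD, n = 5 each), and at day 14 it was 1.28 ± 0.90 (n = 6) in 8 mm and 0.16 ± 1.00 (n = 5) in 4 mm defects. The low 8 mm mean of day 7 is thus absent from the other 3 probes. In 8 mm defects they gave -5.35, 1.16 and 0.33 at days 1, 10 and 21, where the probe used gave -4.97, 0.16 and 0.52. In 4 mm defects they gave -5.19 at day 1 and -0.47 at day 21, against -4.97 and -0.15. The fold increases and the shares left at day 21 thus depend on the probe.

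**Figure D3:**
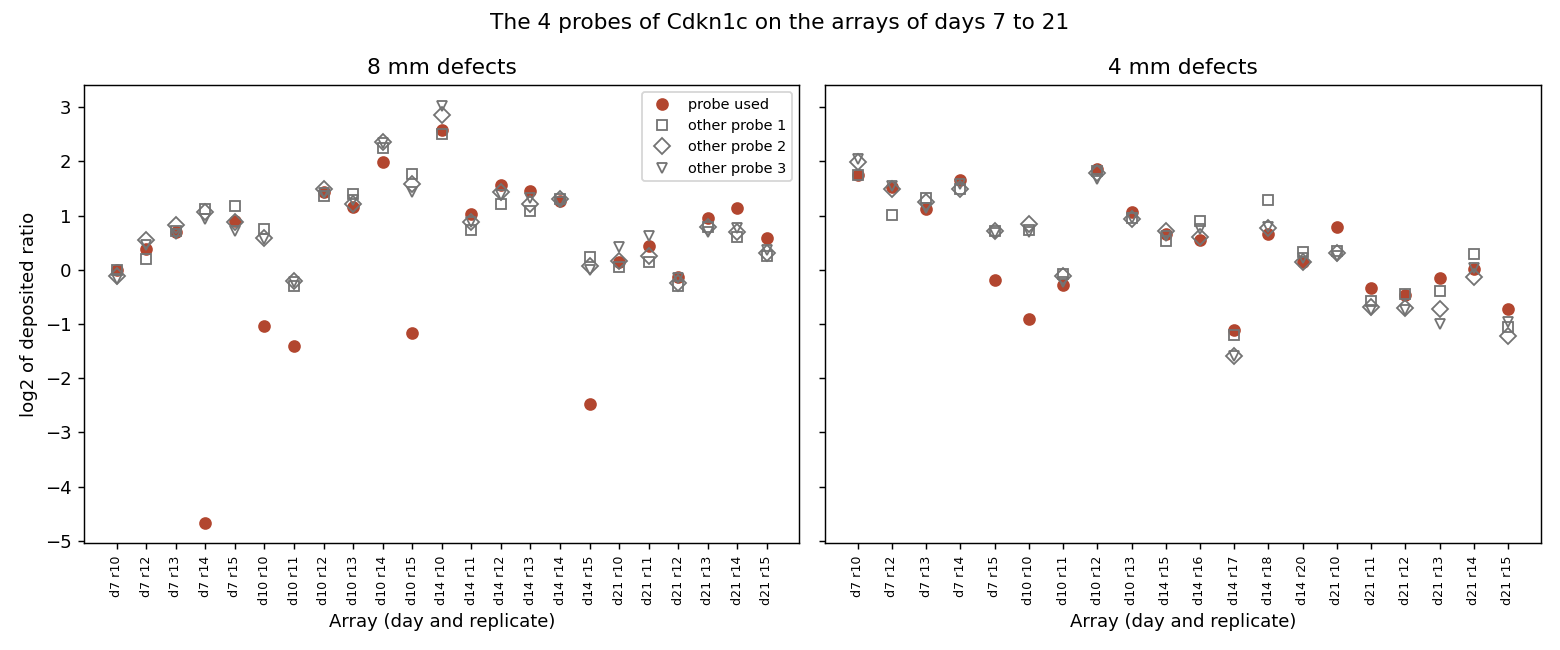
Each column is 1 array of days 7 to 21 (d, day; r, replicate), with the log2 deposited ratio of the Cdkn1c probe used in red and of its other 3 probes as open grey marks, for 8 mm defects at the left and 4 mm defects at the right. The red point of 8 mm day 7 replicate 14 lies at -4.66, while the median of the other probes there is 1.07.

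Igsf10, the immunoglobulin-domain protein, had means of -4.39, -1.04, 0.76, 0.27, 0.21, 0.49 and -0.99 over the 7 days in 8 mm defects and of -4.22, -0.42, 0.40, 1.28, 0.88, 0.98 and -0.48 in 4 mm defects. It reached 35.6-fold above day 1 at day 5 in 8 mm defects and 45.3-fold at day 7 in 4 mm defects. At day 21 the means had come down by 1.75 from the highest mean in 8 mm and by 1.76 in 4 mm defects.

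Srpx2, the ligand of the urokinase receptor, had its highest means on the same days, 1.02 ± 0.61 (SD, n = 12) at day 5 in 8 mm and 1.26 ± 0.37 (n = 5) at day 7 in 4 mm defects. These were 24.1-fold and 30.7-fold above day 1. At day 21 it kept 60.4% of its log2 increase in 8 mm and 61.5% in 4 mm defects.

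Armh4 stood 31.7-fold above day 1 at day 5 in 8 mm and 26.4-fold at day 7 in 4 mm defects, with means at day 21 of -0.95 ± 1.14 and -0.06 ± 0.44 (SD, n = 6 each). In 8 mm defects its values at day 21 ran from -2.94 to -0.01 with a median of -0.44, with 2 arrays, at -2.94 and -1.70, below the rest. Clec2d2 stood 28.8-fold above day 1 at day 5 in 8 mm and 22.1-fold at day 7 in 4 mm defects, and kept 65.7% and 52.1% of the log2 increase at day 21. The related genes Clec2d2l1, Clec2d2l2 and Clec2d2l3 lie beside it on chromosome 4 in the annotation, and whether its probe also binds their transcripts was not tested, so the assignment to Clec2d2 is uncertain. The means of Igsf10, Srpx2, Armh4 and Clec2d2 thus were highest at day 5 or 7 and lower at day 21, still well above day 1.

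Csrp2, the LIM-domain protein, did not stay high on the deposited scale. Its means were -2.89, -0.15, 1.24, 0.02, -1.37, -0.90 and -2.5 over the 7 days in 8 mm defects, and -3.25, 0.32, 1.25, 1.39, -0.01, -0.72 and -2.18 in 4 mm defects. The 12 arrays of 8 mm day 5 lay between 0.95 and 1.60, a tight group, and the 11 of 4 mm day 5 between 0.40 and 1.75. At day 21 the 6 arrays of 8 mm defects read -2.42, -2.43, -2.5, -1.95, -2.74 and -2.94, and the 6 of 4 mm defects read -2.47, -1.81, -1.90, -1.85, -2.12 and -2.93. These overlap the day 1 arrays, which read -4.52, -0.87, -2.23, -2.40 and -4.41 in 8 mm and -3.70, -2.60 and -3.46 in 4 mm defects. Of the highest log2 increase, 9.4% was left at day 21 in 8 mm and 23.1% in 4 mm defects. Without replicate 11 of 8 mm day 1, an array of low level, the 8 mm difference of day 21 from day 1 was -0.02, and without replicate 12 of that group it was 0.89. After quantile normalization the difference was 2.39 in 8 mm and 2.09 in 4 mm defects, so how far Csrp2 came back depends on the scaling. The 8 mm mean at day 10 includes 1 array at the floor, replicate 11, and the median there was -0.47.

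Itm2a, the BRICHOS protein, had the smallest share of its increase at day 3. Its means were -4.08, -2.5, -0.26, 0.63, 1.2, 1.97 and 1.08 in 8 mm defects, and -4.82, -1.97, -0.32, 1.41, 0.96, 1.65 and 1.56 in 4 mm defects. At day 3 it had covered 26.2% of its highest log2 increase in 8 mm and 44.1% in 4 mm defects, against 46.9% to 76.9% for the other genes over both sizes. The highest means, at day 14 in both sizes, were 66.2-fold above day 1 in 8 mm and 88.9-fold in 4 mm defects. The 6 arrays of 8 mm day 14 read 2.51, 2.05, 2.13, 2.69, 2.10 and 0.34, and the 5 of 4 mm day 14 read 0.53, 2.5, 0.63, 2.73 and 1.87.

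Cpxm2, the carboxypeptidase-like protein, was the only gene of the 8 whose mean was highest at day 21 in both sizes. Its means were -3.90, -1.04, -0.02, -0.14, 1.54, 1.99 and 2.21 in 8 mm defects, and -3.35, -0.68, -0.21, 0.86, -0.06, 0.50 and 1.35 in 4 mm defects. The increase at day 21 was 68.8-fold in 8 mm and 25.9-fold in 4 mm defects.

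The step out of day 1, by which the genes were chosen, is part of what they share over the days. Over the 14 group means, Pearson's r between 2 of the genes lay between 0.26 and 0.98 (28 pairs, median 0.85). Over the 12 group means left without day 1 it lay between -0.66 and 0.94 (median 0.58), lowest for Csrp2 and Cpxm2 and highest for Srpx2 and Clec2d2. Within groups, over the 93 arrays with group means taken out, r lay between 0.28 and 0.77, and between 0.04 and 0.60 after the median of the array was subtracted. These arrays share their overall level: the same within-group r with the array median was 0.46 for Armh4 and 0.85 for Srpx2. These values describe the arrays and were not tested.

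Among 5405 other genes with no floor value on any array, those closest to each gene over the 14 group means were named by Pearson's r. Closest to Cdkn1c were Ogn, which encodes the proteoglycan osteoglycin (r = 0.988), Msln and Cpq. Itm2a was followed by the clock gene Bmal1 (r = 0.989), Ptprd and Prss23. Phldb1, the collagen VI gene Col6a1 and the Wnt receptor Fzd1 followed Igsf10. For Srpx2 they were Arhgef19 (r = 0.992), Angptl2 and Col6a1. For Armh4 they were Lmo7, Col6a1 and Phldb1, and for Clec2d2 LOC690045, Angptl2 and Col6a1. Csrp2 had lower values, with Smarcal1 (r = 0.965), Tax1bp3 and Kctd10. Cpxm2 was followed by Aox1 (r = 0.991), the matrix gene Smoc2 and Ccn5. Between 82 genes (Cpxm2) and 253 genes (Srpx2) reached r above 0.9, so such likeness was common in these data.

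The difference between defect sizes at the same day was not used to choose the genes and was tested with limma. None of the 8 genes passed an adjusted p of 0.05 at any day, over the average of the days, or for the interaction of size and day. The shares of all genes that passed were 0% at days 1, 3 and 5 and 0.369%, 0.263%, 1.63% and 2.4% at days 7, 10, 14 and 21. They were 0.413% for the average and 0.538% for the interaction. At an unadjusted p under 0.05 the counts were 0, 0, 0, 7, 2, 1 and 1 of 8 at the 7 days, 3 for the average and 1 for the interaction. The shares of all genes at that threshold were 2.64%, 3.04%, 2.97%, 15.2%, 8.79%, 12.3% and 15.8% at the 7 days, 13.2% for the average and 12.2% for the interaction. The 7 genes of day 7 include Cdkn1c, whose unadjusted p by limma was 0.0501 as the mean of its 4 probes. At day 14 Cdkn1c is not counted, with an unadjusted p by limma of 0.257 from the probe used. As the mean of its 4 probes it was higher in 8 mm defects that day by 0.96 ± 0.47 (SE). The unadjusted p by limma was then 0.0455 and the adjusted p 0.377. The 2 of day 10 include Csrp2, with 1 array of 8 mm at the floor. The 95% intervals at day 5, the day with most arrays, ran no lower than -1.19 and no higher than 0.99. Read from the probes used, 2 patterns came closest. The first was a lower level of all 8 genes in 8 mm defects at day 7. The other was a higher level of Cpxm2 in 8 mm defects from day 10 on.

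**Figure D4:**
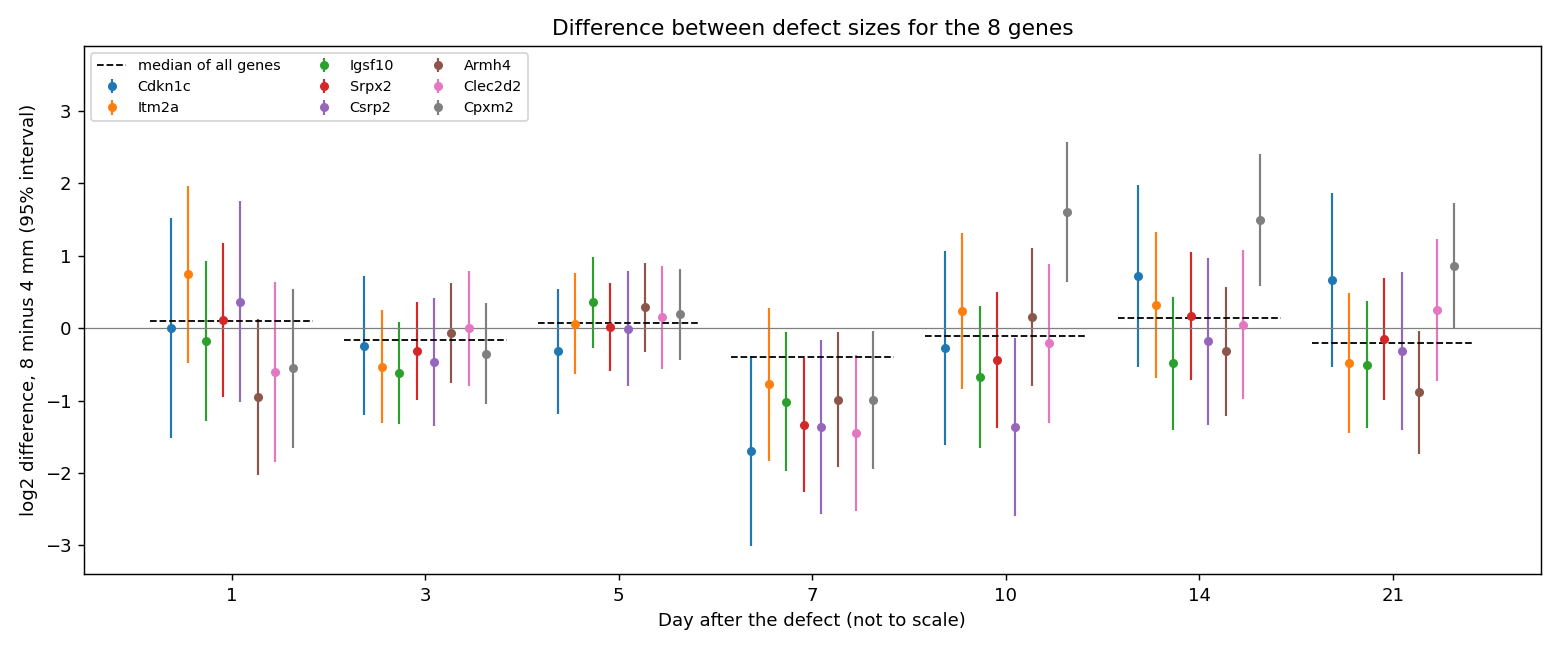
Points are log2 differences of 8 mm minus 4 mm defects at each day with 95% intervals from limma, 1 colour per gene, and dashed lines mark the median over all genes. All 8 points of day 7 lie below 0, between -1.70 and -0.77, and Cpxm2 lies at 1.61 and 1.5 at days 10 and 14.

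At day 7 the means of all 8 genes were lower in 8 mm defects, none past the threshold, with a median difference of -1.18, where the median of all genes was -0.40 and 62.9% of all genes lay below 0. Srpx2 differed by -1.34 ± 0.46 (SE, adjusted p = 0.183), Csrp2 by -1.37 ± 0.60 (0.284), Clec2d2 by -1.45 ± 0.54 (0.220), Igsf10 by -1.02 ± 0.48 (0.305), Armh4 by -0.99 ± 0.47 (0.307), Cpxm2 by -0.99 ± 0.48 (0.310), Itm2a by -0.77 ± 0.53 (0.485) and Cdkn1c by -1.70 ± 0.66 (0.232). The Cdkn1c difference was -0.98 ± 0.49 as the mean of its 4 probes (adjusted p = 0.313) and -0.67 ± 0.61 without replicate 14 of 8 mm day 7 (0.643). At this day 15.2% of all genes had an unadjusted p under 0.05, and of the 8, each read from the probe used, Itm2a alone did not.

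Srpx2 read -0.90, -0.01, -0.21, 0.09 and 0.61 on the 5 arrays of 8 mm day 7, against 1.72, 1.59, 0.87, 1.08 and 1.02 on the 5 of 4 mm day 7. It was the only one of the 8 whose sizes did not overlap there, and 7.98% of all genes were likewise lower in 8 mm without overlap. Clec2d2 read -1.17, -0.31, -0.79, -0.19 and 0.78 in 8 mm and 0.64, 1.49, 1.08, 1.06 and 1.28 in 4 mm defects. Its groups overlapped through replicate 15 of 8 mm alone. Csrp2 read -0.23, -0.10, -0.19, -0.66 and 1.3 in 8 mm, against 1.53, 1.38, 1.13, 1.53 and 1.39 in 4 mm defects, again with replicate 15 as the 8 mm array within the 4 mm range.

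Other measures moved with size at day 7. The median level of the arrays averaged -0.11 in 8 mm and 0.44 in 4 mm defects. With each array centred on its median, the median difference of the 8 genes was -0.76 and that of all genes 0.02, and all 8 genes stayed below 0. Quantile normalization gave -1.31 for the 8 genes and -0.17 for all genes. The mean of the 7 fibroblast markers was -0.06 ± 0.44 (range -0.35 to 0.71) in 8 mm and 0.91 ± 0.25 (0.56 to 1.2) in 4 mm defects (SD, n = 5 each). The 7 brain markers measured of 8 had a mean of 1.14 ± 2.37 (-0.85 to 4.04) in 8 mm and -1.54 ± 1.05 (-2.49 to -0.09) in 4 mm defects, and those of skeletal muscle (8 of 8) one of -0.43 ± 2.54 (-2.87 to 2.75) and -2.46 ± 0.75 (-3.46 to -1.62). None of these markers was at the floor on all arrays of either group. Without the arrays whose brain score exceeded 2, which at day 7 were replicates 10 and 12 of 8 mm, the 8 differences lay between -2.19 (Cdkn1c) and -0.75 (Igsf10). Only replicates 13, 14 and 15 of 8 mm were then left at day 7. The Cdkn1c value includes the -4.66 of replicate 14, where the median of its other 3 probes was 1.07. Of the 5 pericyte and smooth muscle markers, with means of -0.54 ± 0.42 and 0.34 ± 0.55, Rgs5 was lower in 8 mm defects and passed. The 5 osteoclast markers measured of 6 had a mean of -0.60 ± 0.72 (-1.69 to 0.20) in 8 mm and 0.59 ± 0.73 (0.09 to 1.83) in 4 mm defects, and the 6 meningeal markers one of 0.98 ± 0.73 and 0.25 ± 1.59. None of the osteoclast and meningeal markers passed. The part of the fibroblast, brain, pericyte, osteoclast, meningeal and muscle markers in the day 7 difference was not tested.

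Weighting the arrays by their quality let 6 of the 8 genes pass at day 7 (Srpx2 at an adjusted p of 0.00261, not Itm2a or Armh4), and leaving out the 7 arrays of low level, none of which is of day 7, let Srpx2, Csrp2 and Clec2d2 pass. Under these alternatives 13.2% and 7.52% of all genes passed at day 7. Leaving out those 7 arrays left the day 7 differences themselves as they were. At day 3 the differences of all 8 genes were below 0 as well, where 62.7% of all genes were. Clec2d2 lay at -0.0035 there, and with each array centred Clec2d2 (0.11) and Armh4 (0.05) were above 0. At the other days the genes lay on both sides of 0. The median difference of the 8 genes was -0.09, -0.33, 0.11, -0.24, 0.11 and -0.23 at days 1, 3, 5, 10, 14 and 21, and over the average of the days it was -0.27.

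The Cpxm2 means crossed over between the sizes. Against its lower mean in 8 mm defects at day 7, it differed by 1.61 ± 0.49 at day 10 (SE, adjusted p = 0.150 by limma), 1.5 ± 0.46 on day 14 (0.0725) and 0.86 ± 0.44 on day 21 (0.322), which are 3.04-fold, 2.82-fold and 1.81-fold higher means in 8 mm defects. The 6 arrays of 8 mm day 10 read 1.10, 0.75, 2.04, 2.27, 2.20 and 0.90, and the 4 of 4 mm day 10 read -0.24, -0.65, 0.40 and 0.23. The groups did not overlap at day 10, as for 0.645% of all genes with 8 mm higher. At day 14 the 8 mm arrays read 2.14, 1.16, 1.97, 2.92, 2.42 and 1.35, and the 4 mm arrays 0.22, 1.44, -0.58, 1.12 and 0.28. Only replicate 16 of 4 mm reached into the 8 mm range. At day 21 the 6 readings were 2.36, 1.95, 1.82, 2.53, 2.22 and 2.36 in 8 mm and 1.26, 1.06, 1.60, 1.79, 1.67 and 0.71 in 4 mm defects, again without overlap (0.438% of all genes).

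The interaction of size and day, which asks whether the difference varies over the 7 days, gave Cpxm2 an adjusted p of 0.0502 (limma's F = 4.83, unadjusted p = 0.000292) and the other 7 genes adjusted p-values of 0.558 to 0.755. The value for Cpxm2 lay on the edge of the threshold. It was 0.0138 with each array centred, 0.0465 with array weights, 0.138 with the replicate number as a block and 0.482 with quantile normalization, and lay between 0.0268 and 0.0850 when each of 27 arrays, those of days 1 and 7 and of 4 mm days 10 and 14, was left out in turn. With centring the differences at days 10 and 14 passed as well (adjusted p = 0.0382 and 0.0480).

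Meningeal markers also moved with size at day 10. The mean of the 6 markers was 0.77 ± 0.98 (SD, range -0.24 to 2.5, n = 6) in 8 mm and -1.34 ± 1.25 (-2.70 to 0.33, n = 4) in 4 mm defects, and Foxc1, a transcription factor of the meninges and of skull mesenchyme, passed the test. Foxc1 was 1.5 ± 0.73 in 8 mm and -1.71 ± 1.72 in 4 mm defects at that day. At days 14 and 21, where Cpxm2 also differed, the meningeal means were 0.74 ± 1.32 and 1.09 ± 1.02 in 8 mm and 0.50 ± 1.02 and 0.92 ± 0.58 in 4 mm defects. No meningeal marker was called at days 14 and 21, but Foxc1 and the transporter gene Slc47a1 were called higher in 8 mm defects over the average of the days. Slc47a1 was 1.78 ± 0.48 and 2.11 ± 0.30 in 8 mm and 0.14 ± 0.98 and 0.89 ± 0.90 in 4 mm defects at days 14 and 21. The 6 markers did not move together at these days: 4 of 6 differences were above 0 at day 14 and 3 of 6 at day 21. The 4 markers other than Foxc1 and Slc47a1 had mean differences of -0.50 and -0.45, with Slc22a6 lowest at -2.61 and -1.47. The mean of the 8 osteoblast markers at day 21 was 1.24 ± 0.82 in 8 mm and -0.10 ± 1.02 in 4 mm defects (SD, n = 6 each). The brain markers at that day had means of -2.34 ± 0.51 in 8 mm and 1.31 ± 2.55 in 4 mm defects. The part of these markers in the Cpxm2 difference was not tested.

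The families and partners of the 8 genes, 68 measured genes in 10 lists, were tested against day 1 as well. At days 3, 5, 7, 10, 14 and 21, those that passed numbered 19, 32, 27, 25, 33 and 34. The shares of all genes passing were 6.44%, 19%, 21.4%, 16.6%, 21% and 26.2%. Those higher than at day 1 numbered 19, 28, 24, 22, 25 and 22 at these days, where 5.97%, 17.3%, 16.6%, 10.4%, 12.6% and 13.4% of all genes were called higher. Those lower numbered 0, 4, 3, 3, 8 and 12, where the shares were 0.47%, 1.69%, 4.83%, 6.15%, 8.41% and 12.8%. The median change of the 68 genes was 0.97 at day 5 and -0.01 at day 21, and that of all genes 0.34 and -0.18. Adjusted p-values below come from limma over all genes.

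Of the 6 other inhibitors of cyclin-dependent kinases, 3 were higher at day 7, namely Cdkn2b (3.84 ± 0.68 on the log2 scale, SE, adjusted p = 6.77e-06), Cdkn2c (1.74 ± 0.33) and Cdkn2a (1.70 ± 0.34). Cdkn2b and Cdkn2a encode inhibitors of the kinases that cyclin D activates. None was lower at day 7, but Cdkn1b, of the same Cip/Kip family as Cdkn1c, was lower at day 14 (-1.35 ± 0.39, adjusted p = 0.00762) and day 21 (-1.31 ± 0.38, adjusted p = 0.00653). Cdkn2d was lower at day 5 (-0.99 ± 0.34, adjusted p = 0.0268) and higher at day 21 (0.96 ± 0.37, adjusted p = 0.0470). Both were named after their values were seen. Among 9 cyclins and kinases that Cdkn1c can bind, 3 were higher and none lower at day 5, and at day 21 none was higher and Ccna2, the S-phase cyclin, was lower (-1.98 ± 0.45, adjusted p = 0.000409), a call lost with quantile normalization and with the mean of its probes. Ccne2 at day 10 (-3.44 ± 1.03) and Ccne1 at day 14 (-3.0 ± 0.95) were lower, with 11 and 13 of 93 arrays at the floor, and the Ccne2 call was lost under 4 of 36 alternatives.

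Of 10 measured imprinted growth genes of 13 listed, 6 were higher and none lower at day 14. Igf2, the fetal insulin-like growth factor, was higher by 6.69 ± 0.64 (adjusted p = 3.21e-14), and Plagl1, a zinc-finger regulator of such genes, by 2.5 ± 0.69, a call lost without replicate 13 of 4 mm day 1. H19, the non-coding RNA next to Igf2, was higher by 4.05 ± 0.48 at day 10. Igf2 also differed between sizes, by 1.31 ± 0.30 over the average of the days (8 minus 4 mm, adjusted p = 0.0253), where 0.413% of all genes passed. Its means at days 7, 10, 14 and 21 were 1.64, 2.98, 2.93 and 2.92 in 8 mm and 0.05, 0.15, 2.22 and 1.56 in 4 mm defects. The call was lost under 4 of 36 alternatives, namely quantile normalization and leaving out the arrays of low level, those of high brain score or replicate 13 of 4 mm day 1. Over the 36 the difference lay between 1.16 and 1.49.

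Of the 6 other BRICHOS proteins 3 were higher at day 21, led by Tnmd, the tendon marker tenomodulin (6.50 ± 0.45, adjusted p = 6.62e-21), with 2 of 93 arrays at the floor. The relatives of Itm2a in its own family were higher too, Itm2b by 1.91 ± 0.37 at day 14 and Itm2c by 1.55 ± 0.28 at day 7. Of 7 measured immunoglobulin-superfamily relatives of Igsf10, 2 were higher and 2 lower at day 21. These included Igsf1 (6.46 ± 1.24) and Igsf9 (-4.30 ± 1.07), with 6 and 15 of 93 arrays at the floor. Lrig1, a negative regulator of growth factor receptors, was higher at day 7 (2.45 ± 0.43).

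Srpx, the closest relative of Srpx2, was higher at day 5 (2.43 ± 0.30, adjusted p = 5.87e-10), while the Srpx2 receptor Plaur was lower at day 21 (-2.87 ± 0.41, adjusted p = 4.92e-08). The protease Adamts4, which Srpx2 binds, was lower at day 21 (-3.36 ± 0.89, 13 of 93 arrays at the floor), a call lost with values under 0.25 raised. In the list of LIM-only proteins and smooth muscle targets of SRF, 5 of 8 were higher and 1 lower at day 5. Tagln, a smooth muscle actin-binding protein, was higher by 4.18 ± 0.34 at day 5, and the smooth muscle myosin Myh11 by 3.14 ± 0.36 at day 21. Csrp3, the striated muscle relative of Csrp2, was lower at day 21 (-8.58 ± 1.29, 8 of 93 arrays at the floor).

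Of the 7 metallocarboxypeptidases related to Cpxm2, 5 were higher at days 5, 7, 10, 14 and 21 and the list's median change at day 10 was 2.53. Cpz, a secreted enzyme that binds Wnt proteins, was higher by 4.01 ± 0.35 at day 10 (adjusted p = 4.87e-16), and Cpe, the enzyme of prohormone processing, by 3.93 ± 0.46 at day 21. Cpn1, the liver-made plasma enzyme, was lower at day 21 (-4.66 ± 1.35, 24 of 93 arrays at the floor). At day 5, 1 of 4 measured genes of the Armh4 list passed. Of that list Mtor, the kinase itself, was higher at day 7 (1.78 ± 0.32), and Il6st, the shared receptor chain of the interleukin 6 family, was lower at day 21 (-2.58 ± 0.81), a call lost under 6 of 35 alternatives.

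The 6 measured Clec2 ligands and Klrb1 receptors of 10 listed gave 1 higher and 3 lower genes at day 21. Klrb1b, a receptor of natural killer cells, was lower at day 14 (-4.12 ± 0.90, adjusted p = 0.000314), Clec2d at day 21 (-3.53 ± 1.26) and Klrb1c at day 5 (-2.67 ± 0.90). The Clec2d call was lost under 9 of 36 alternatives and the Klrb1c call under 7. Between sizes at day 21, Klrb1b was higher in 8 mm by 4.55 ± 1.10 and Clec2l was lower (-3.79 ± 1.08). These rested on the floor, with 0 of 6 arrays at it in 8 mm and 4 of 6 in 4 mm for Klrb1b, and 3 and 1 of 6 for Clec2l. Clec2l was higher in 8 mm at day 14 by 4.90 ± 1.13, with 0 of 6 arrays at the floor in 8 mm and 2 of 5 in 4 mm. Mtor was lower in 8 mm at day 21 (-1.47 ± 0.38, adjusted p = 0.0216), with means of -1.31 ± 1.51 in 8 mm and 0.17 ± 0.91 in 4 mm defects (SD, n = 6 each). These 4 calls of Klrb1b, Clec2l and Mtor were lost with quantile normalization, and the 3 of day 21 also with values under 0.25 raised and without the arrays of high brain score. Both Clec2l calls were lost with the replicate number as a block, and the Clec2l call of day 21 under 6 of 36 alternatives in all, array weights and the filter on variability among them. No other related gene passed between sizes at any day or over the average.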

How the data were processed

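RNA from 93 defects was labelled with Cy3 and hybridised to one-colour Agilent rat arrays, per the labels' protocols. The deposited table holds a ratio on a linear scale, since 87.75% of the 41090 probes have 1 as their median across arrays, rounded to 3 decimals. The value 0.01 is its floor and makes up 13.42% of entries. How these values were background-corrected and scaled is not given in the sources used here, so scale between arrays and signal over background stay unknown. The number of arrays limits the precision.

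Groups came from day and size in the sample titles. Of the probes, 20932 had 1 gene symbol and 20158 were unnamed here. Accessions matched 17415 probes to current RefSeq names (GRCr8), of which 2315 symbols changed. A gene was read from its probe with the largest interquartile range, as log2 without a pseudocount.

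limma 3.58.1 (R 4.3.3) fitted a model of 14 group means, with two-sided moderated tests, the interaction by a moderated F test and Benjamini-Hochberg adjustment over 15974 genes per comparison (threshold 0.05). The code was tested on simulated data. The replicate is the rat number in the title. Of 34 same-numbered pairs across sizes, 3 correlated above 0.1 (range -0.10 to 0.33), so the numbers were not taken to pair samples.

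The genes, lists and tests were chosen with earlier results of these data known. Named were the 8 genes, for each the 3 others most like it over group means, up to 3 genes per related list with the largest passing change against day 1, and any related gene passing between sizes. Alternatives were quantile normalization, array centring, filters on variability and floor, ratios under 0.25 raised to it, averaging probes, weighting arrays by quality, the replicate block, the compared groups alone, and leaving out arrays (singly, 27 of 93). For related genes the alternatives were added after seeing the data.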

Additional observations from a re-analysis of the deposited data

Results flagged for a closer look

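A sample stood apart from its group, by Dixon's test at the 95% level, in 9 of 80 tests, each of 1 gene in 1 group of 4 to 10 arrays. Chance gives about 1 in 20 per test. The 8 genes were read on the same arrays, so the 80 tests are not independent and the 2 shares cannot be weighed against each other. On the log2 scale, Cdkn1c was lowest in 8 mm day 7 replicate 14 (-4.66) and in 8 mm day 14 replicate 15 (-2.48), and its other 3 probes read 1.07 and 0.08 on these arrays. Itm2a was lowest in the same 8 mm day 14 replicate 15 (0.34, the nearest array being 2.05). Replicate 15 of 4 mm day 21, 1 of 3 arrays of that group with a brain score above 2, was lowest for 3 genes: Itm2a at 0.0 (nearest 1.76), Igsf10 at -2.16 (nearest -0.61) and Srpx2 at -2.12 (nearest -0.68). Csrp2 was highest in 8 mm day 7 replicate 15 at 1.3 (nearest -0.1) and lowest in 8 mm day 10 replicate 11, at the floor of -6.64 (nearest -0.83). Clec2d2 was lowest in 4 mm day 10 replicate 10 at -1.51 (nearest 1.03). These last 2 are arrays of low overall level.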

How the results depend on the processing

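The count of the 8 genes passing between sizes was 0 at days 1, 3, 5 and 21 and over the average of the days under each alternative run. At day 7 it was 0, but 6 with array weights and 3 without the arrays of low level. At day 10 it was 1 with each array centred, and at day 14 it was 1 with centring and 1 without the arrays of high brain score, and 0 to 1 when single arrays were left out (Cpxm2 without 8 mm day 1 replicate 16 or 4 mm day 14 replicate 16). For the interaction it was 1 with centring, with genes at the floor left out, with values under 0.25 raised, with array weights and without the arrays of low level, and 0 to 1 when single arrays were left out (1 in 12 of 27 cases). With the replicate number as a block it was 0 in each comparison, and Cpxm2 had an adjusted p of 0.138 for the interaction. The cause of these moves was not tested.

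The Csrp2 difference of day 21 from day 1 in 8 mm defects was 0.39, but -0.2165 with values under 0.25 raised, -0.0198 without the arrays of low level and 2.3884 with quantile normalization. It lay between -0.0198 (without 8 mm day 1 replicate 11) and 0.8913 (without 8 mm day 1 replicate 12) when single arrays were left out. Of 49 further differences between sizes of the 8 genes, from -0.95 to 0.86, 25 changed sign under some alternative and 0 passed. The increases above day 1 kept their sign in all other cases, but not their size: 93 of 96 moved by over 1 SD with values under 0.25 raised and 60 of 96 with quantile normalization.

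Related genes passing against day 1 numbered 3, 5, 7, 7, 13 and 15 at days 3 to 21 with the less variable genes left out, since many of the 68 are then not tested. With array weights day 3 gave 29, and with genes at the floor left out day 21 gave 21. Single arrays were left out in groups of 3 to 5 arrays, which are 27 of the 93: those of days 1 and 7 and of 4 mm days 10 and 14. No array of days 3, 5 or 21 or of 8 mm days 10 and 14 was left out, so the ranges do not cover these. Over the 27 the counts were 11 to 20, 27 to 33, 25 to 30, 20 to 30, 26 to 36 and 30 to 35, the 11 at day 3 without 4 mm day 1 replicate 13.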
